A study of Homo sapiens with 9 samples.

Results

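The 42 neuronal and neuroendocrine genes described here encode granins and prohormone processing enzymes, proteins of vesicle fusion, neurofilament and microtubule proteins, neuronal RNA-binding proteins and adhesion molecules of axons and synapses. They were chosen by name from a list of such genes, and all 42 were found, each in 1 row, among the 60603 genes of the table. TC32 is an established line of Ewing sarcoma, a bone and soft tissue tumour, and carries the fusion gene EWS::FLI1. RNA was sequenced in bulk from 9 cultures of this wild-type line, all labelled as 1 batch, and the titles number them as biological replicates. The siEF group (n = 3) was plated for 30 h on an siRNA that spans the breakpoint of the fusion, the siNEG group (n = 3) on a nonspecific siRNA for the same 30 h, and the Media group (n = 3) is labelled Media and 30 h. The protocol text is the same for all samples and speaks of plating on siRNA also for Media, so that the absence of siRNA there rests on the treatment label, and it names a kit for small RNA libraries although the molecule is given as polyA RNA. The comparison of siEF with siNEG asks what silencing of the fusion did to these transcripts. The model is a single line at a single time, and the labels name no neuronal tissue.

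Granins are acidic proteins that pack peptide hormones into dense core vesicles, and prohormone convertases cut the precursors inside those vesicles. Synaptic vesicles release their content when the SNARE proteins STX1A, SNAP25 and VAMP2 pull membranes together on a calcium signal that synaptotagmins sense. Several of these proteins (synaptophysin, chromogranin A, CD56, neurofilaments) serve pathologists as markers of neural differentiation, and Ewing sarcoma is known for a partial and variable expression of them.

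Libraries held between 20727706 (siEF replicate 2) and 33134581 (siNEG replicate 2) expected counts. At these depths 3 counts correspond to between 0.0884 and 0.147 CPM (counts scaled to a common library size by TMM), which covers counting error only. The 10 most abundant genes took 12.3% to 12.9% of the counts in siEF and 5.78% to 6.62% in the other libraries. Of the 8 Ewing sarcoma markers checked, all were detected in the control libraries and 7 were called lower in siEF than in siNEG, where 11.7% of all tested genes were called lower. The remaining marker, CD99, was above siNEG, with 192, 188 and 188 CPM in siEF against 165, 157 and 161 CPM in siNEG. In Media it had 226, 193 and 193 CPM. NR0B1, a nuclear receptor gene with a GGAA repeat at which the fusion binds, had 15.6, 20.2 and 17.1 CPM in siEF against 143, 133 and 135 CPM in siNEG. FLI1, whose 3′ part is within the fusion transcript, had 38.4, 35.5 and 39.3 CPM in siEF against 48.6, 48.5 and 48 CPM in siNEG.

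Between siEF and siNEG, some of these genes were called higher and others lower. Calls required an adjusted P below 0.01 (edgeR's quasi-likelihood test with Benjamini-Hochberg adjustment over the 16093 genes that passed the filter on low counts) and a log2 fold change (Log2FC) beyond 1. Of the 42 members, 27 passed the filter. The 7 called higher in siEF than in siNEG were L1CAM, PCSK1, NRXN2, DCX, INA, CADM1 and SYT11, where 17.1% of all tested genes were called higher. Of the 7, PCSK1 passed the filter only through siEF, and NRXN2 could not have passed without its siEF libraries. The calls of PCSK1 and NRXN2 are therefore no independent evidence of a rise. The 6 called lower were SYP, NCAM2, MAPT, PCSK2, SYT1 and GAP43, where 11.7% of all tested genes were called lower. In these bulk libraries fewer cells of a type and less RNA per cell cannot be told apart.

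By adjusted P alone (edgeR), 12 members were higher and 10 lower, 22 of 27, where 65.4% of all tested genes passed. The siEF and siNEG libraries did not overlap for 24 of the 27 members, against 76.9% of all tested genes. PCSK1, NRXN2 and MAP2, among the 24, needed their siEF libraries to pass the filter, so that their separation is no independent evidence. PCSK1 and NRXN2 are also among the 12 higher. The median Log2FC of the tested members was 0.14, beside 0.05 for all tested genes, and the median size of the change was 0.98, beside 0.63. Summed over the 42 members, siEF held 1737 ± 18.1 CPM (SD, n = 3) and siNEG 1447 ± 25.3 CPM (SD, n = 3). MAP1B made up the difference: without it, the sums were 1027 ± 19.4 CPM in siEF and 1084 ± 3.53 CPM in siNEG (SD, n = 3).

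**Figure D1:**
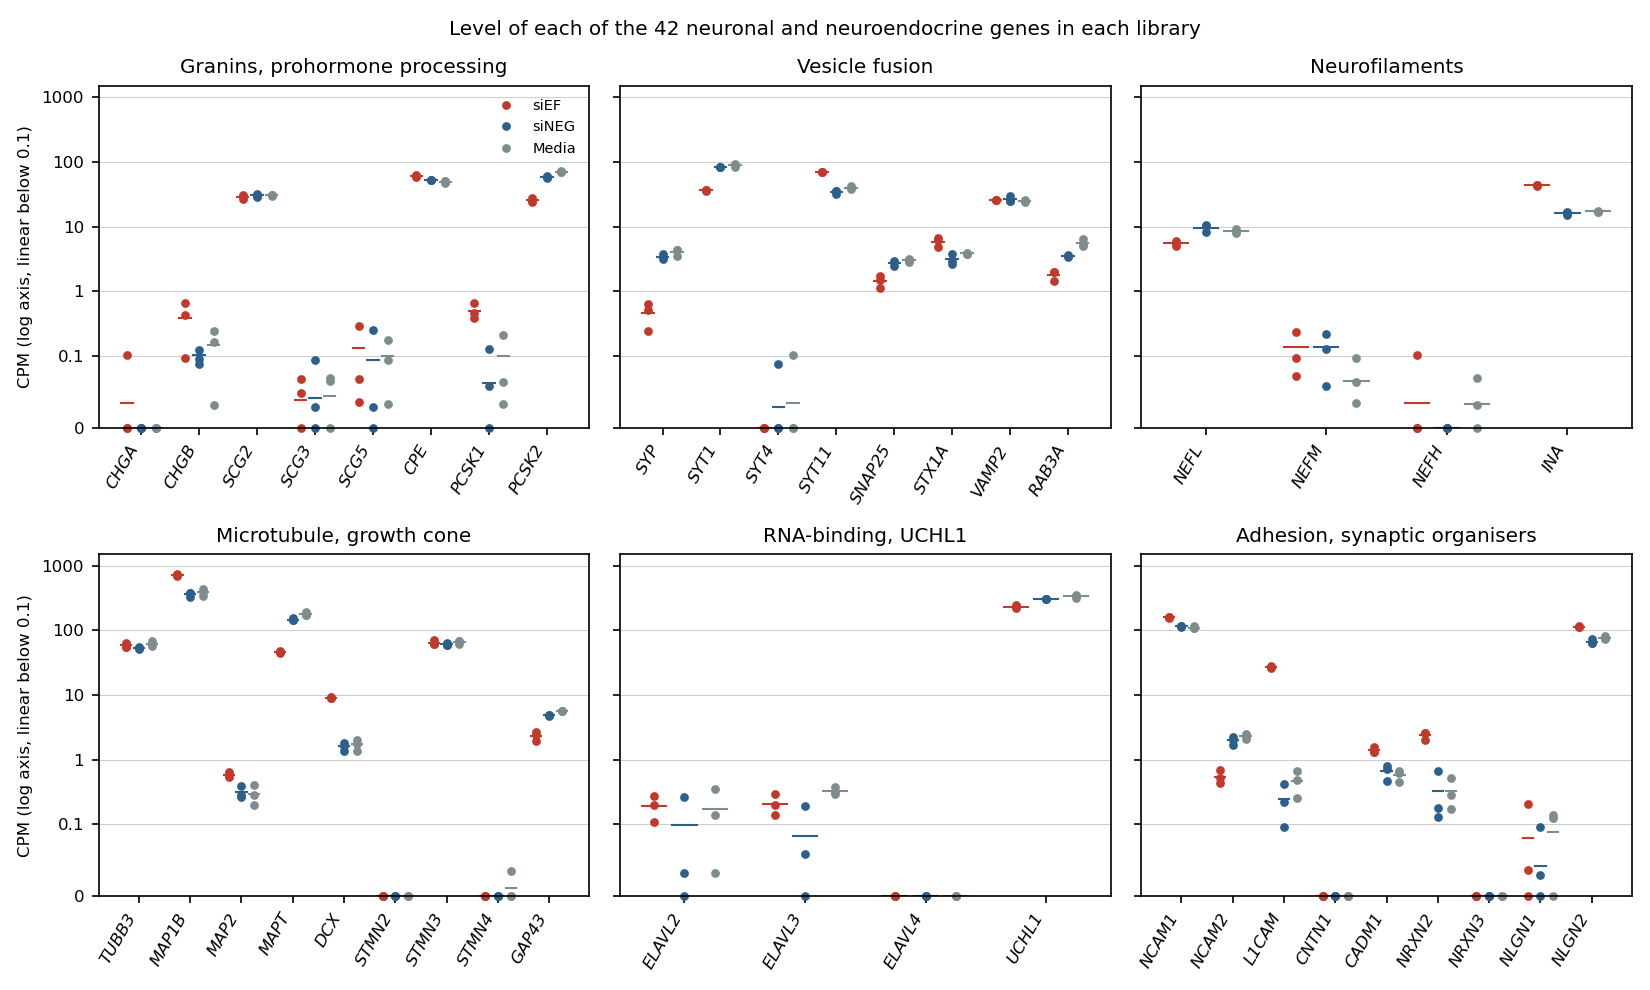
Level of each of the 42 members in CPM (vertical axis, logarithmic above 0.1 and linear below) in the 9 libraries, by role. Points are libraries and short lines are group means (n = 3), and points that stay on the bottom line are at 0 counts. The members span 0 counts to 735 CPM, and siEF points separate from both controls in the 2 directions within the same role.

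The fold changes by role show both signs in every role that had more than 1 tested member.

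**Figure D2:**
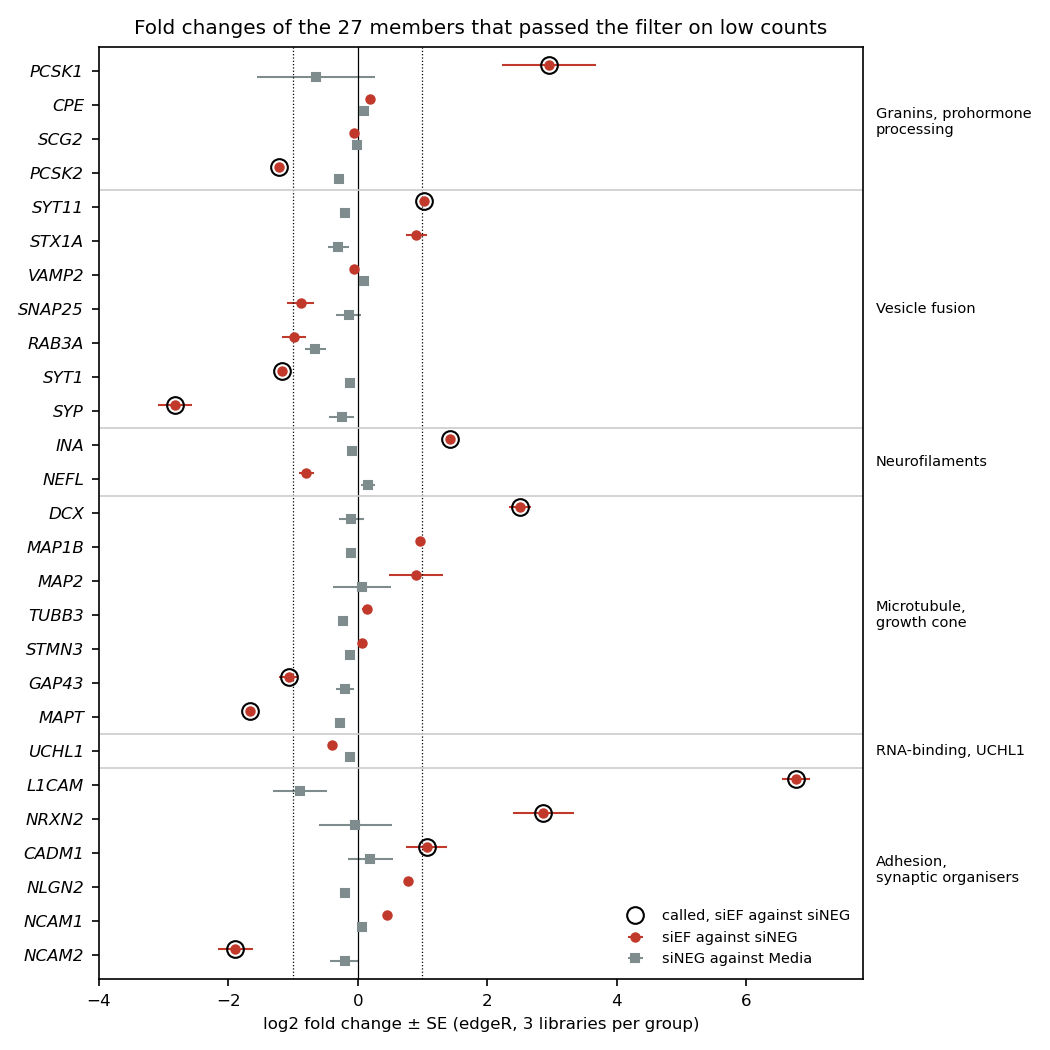
Log2FC ± SE (horizontal axis) of the 27 tested members, grouped by role, for siEF against siNEG (red circles) and siNEG against Media (grey squares). Black rings mark the 13 members called between siEF and siNEG, and dotted lines mark a Log2FC of -1 and 1. L1CAM lies farthest to the right at 6.76 and SYP farthest to the left at -2.82, while the grey squares lie between -0.89 and 0.20.

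Among the granins and the enzymes that process prohormones, 4 of 8 genes were tested, and PCSK2 was called lower and PCSK1 higher. PCSK2, the convertase that completes the maturation of many neuropeptides, had 24.9, 27.7 and 23.8 CPM in siEF, 60.8, 57.9 and 57.2 CPM in siNEG and 70.7, 73.7 and 69.5 CPM in Media. Every siEF library was below every control library, and PCSK2 was 2.30-fold lower in siEF than in siNEG (Log2FC -1.21, SE 0.064, edgeR adjusted P = 3.29e-11). PCSK1, the convertase that makes the first cuts, had 13, 8 and 19 counts in siEF against 0, 2 and 4 counts in siNEG and 1, 2 and 6 counts in Media.

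PCSK1 (Log2FC 2.96, SE 0.72, edgeR adjusted P = 0.00155) passed the filter on low counts only through its siEF libraries, so that it had to be higher there to be tested at all and its call is no independent evidence of a rise. At this depth its level in siNEG, 0.0624 ± 0.0642 CPM (SD, n = 3), was close to that of a few reads. Its call was lost without siEF replicate 3 (Log2FC 2.72, edgeR adjusted P = 0.0111), and the Log2FC was 3.88 without siNEG replicate 3 and 2.31 against Media. Both proteins are related, with 46.3% identity over 626 aligned residues, and the genes lie on chromosomes 5 and 20.

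CPE, the carboxypeptidase that trims the cut peptides, had 60.4 ± 2.12 CPM in siEF and 53.1 ± 0.413 CPM in siNEG (SD, n = 3). The libraries did not overlap and the adjusted P passed (edgeR, 0.00504), with a Log2FC of 0.19 (SE 0.053). Without the filter on low counts CPE did not pass (Log2FC 0.14, edgeR adjusted P = 0.0561). SCG2, secretogranin II and the one granin that passed the filter, had 31.1, 26.7 and 30.1 CPM in siEF and 30.2, 29.1 and 32.4 CPM in siNEG. The groups overlapped and no difference was detected (Log2FC -0.06, SE 0.069, edgeR adjusted P = 0.475).

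The classical granins were near the floor. CHGA, chromogranin A, had 3 counts in siEF replicate 3 and 0 in the other 8 libraries. CHGB had 12, 2 and 19 counts in siEF against 4, 3 and 3 in siNEG and 5, 1 and 7 in Media. It did not pass the filter with all libraries. Without siEF replicate 2 it passed, through the other 2 siEF libraries alone, and had a Log2FC of 2.35, a value that the filter admitted only because siEF was high and that is no evidence of a rise. SCG3 had at most 3 counts in any library and SCG5, a chaperone of PCSK2, at most 8. Summed over the 8 genes of this role, siEF held 116 ± 1.53 CPM and siNEG 143 ± 1.75 CPM (SD, n = 3). Without PCSK2 the sums were 90.8 ± 3.29 CPM in siEF and 84.0 ± 1.66 CPM in siNEG.

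The promoters of these genes were read for 3 strings. TTCAGCACC and GGACAGC are the left and right parts of the RE1 site, at which the repressor REST keeps neuronal genes silent in other tissues, and GGAAGGAA is a pair of the units in the GGAA repeats that the fusion binds. RefSeq gave a window from 250 bases before to 50 bases after a start for 29 of the 42 members (GRCh38.p14), and each string was sought on both strands. GGACAGC stood in 3 of the 29 member windows (GAP43, PCSK2 and SCG3) and in 6.03% of all 35116 windows, TTCAGCACC in 1 (SCG3) and in 0.376%, and GGAAGGAA in 2 (PCSK1 and SCG3) and in 3.67%. A match is a description of letters. The windows of PCSK2, which was called lower, and of SCG3, the one member that held all 3 strings, are printed here 5′ to 3′ along the gene, PCSK2 at chr20:17225857-17226156 and SCG3 at chr15:51681253-51681552, both on the plus strand. Capitals mark the strings, which in PCSK2 read as GCTGTCC and for the GGAA pair in SCG3 as TTCCTTCC because those matches are on the opposite strand.
PCSK2: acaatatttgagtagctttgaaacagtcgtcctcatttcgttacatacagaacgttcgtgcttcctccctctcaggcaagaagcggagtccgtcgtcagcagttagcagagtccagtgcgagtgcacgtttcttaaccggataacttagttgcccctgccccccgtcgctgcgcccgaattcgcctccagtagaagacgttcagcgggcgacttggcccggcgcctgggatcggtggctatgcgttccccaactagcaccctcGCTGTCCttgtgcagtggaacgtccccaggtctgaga
SCG3: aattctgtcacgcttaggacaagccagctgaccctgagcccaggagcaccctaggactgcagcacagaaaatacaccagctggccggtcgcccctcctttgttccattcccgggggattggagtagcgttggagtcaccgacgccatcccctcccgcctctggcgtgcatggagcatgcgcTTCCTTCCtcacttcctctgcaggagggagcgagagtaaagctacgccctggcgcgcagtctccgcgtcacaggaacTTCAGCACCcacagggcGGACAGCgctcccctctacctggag
In SCG3 both parts of the site stand in the same direction in the bases after the start, beginning at bases 9 and 26. The gene was at 0 to 3 counts in all 9 libraries. REST binding was not measured, and a link between these strings and the counts was not tested.

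Of the 8 vesicle fusion genes, 7 were tested, 2 were called lower (SYP and SYT1) and 1 higher (SYT11), and by adjusted P alone 4 were lower and 2 higher. SYP, synaptophysin, a major membrane protein of synaptic vesicles, had 0.650, 0.245 and 0.514 CPM in siEF, from 18, 5 and 15 counts. In siNEG it had 3.76, 3.45 and 3.17 CPM, and in Media 3.59, 4.31 and 4.40 CPM. It was 7.37-fold lower (Log2FC -2.82, SE 0.26, edgeR adjusted P = 3.95e-08), the largest fall among the tested members. SYT1, the calcium sensor of fast release, had 37.2, 36.3 and 37.4 CPM in siEF, 82.7, 82.9 and 82.7 CPM in siNEG and 85.4, 93.8 and 91.4 CPM in Media. The siEF libraries lay together far below both controls, at a 2.24-fold difference from siNEG (Log2FC -1.16, SE 0.053, edgeR adjusted P = 4.71e-12).

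SYT11, a synaptotagmin that does not bind calcium, went the other way. It had 71.4, 69.9 and 70.4 CPM in siEF, 32.6, 36.1 and 35.8 CPM in siNEG and 42.4, 40.2 and 37.7 CPM in Media. The Log2FC against siNEG was 1.02 (SE 0.060, edgeR adjusted P = 1.55e-10), just past the cut-off, and it was 0.94 without siNEG replicate 1, 0.98 without the filter, 0.82 against Media and 0.91 against both controls pooled, all below it. SYT4, its closest relative here with 53.9% identity over 423 aligned residues, had 3 counts in each of 2 libraries and 0 in the other 7.

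Of the 3 SNARE genes, SNAP25 was lower and STX1A higher by adjusted P alone. SNAP25 had 1.52, 1.13 and 1.75 CPM in siEF against 2.43, 2.86 and 2.92 CPM in siNEG (Log2FC -0.88, SE 0.21, edgeR adjusted P = 0.00104). STX1A, syntaxin 1A, had 6.18, 6.61 and 4.94 CPM in siEF against 3.73, 3.01 and 2.69 CPM in siNEG (Log2FC 0.90, SE 0.16, edgeR adjusted P = 9.29e-05). Neither group pair overlapped, and both stayed inside the fold cut-off with all libraries. Without siEF replicate 3 both passed it, SNAP25 at -1.03 and STX1A at 1.02, and without siNEG replicate 1 STX1A was at 1.01.

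VAMP2, synaptobrevin, overlapped between the groups, with 26.1, 25.5 and 25.7 CPM in siEF and 29.9, 25 and 25.2 CPM in siNEG (Log2FC -0.05, SE 0.074, edgeR adjusted P = 0.552). It shares 11.9% of its exonic bases with another protein-coding gene on the same strand. RAB3A, a small GTPase of vesicle docking, had 1.99, 2.01 and 1.44 CPM in siEF, 3.48, 3.71 and 3.46 CPM in siNEG and 6.50, 5.20 and 5.10 CPM in Media. Its Log2FC of -0.98 (SE 0.18, edgeR adjusted P = 0.000143) missed the fold cut-off, and passed it at -1.07 without siEF replicate 1, -1.06 without siEF replicate 2, -1.03 without siNEG replicate 1 and -1.01 without siNEG replicate 3. RAB3A shares 165 exonic bases (9.24% of its exons) with MPV17L2 on the opposite strand, which was called lower (Log2FC -1.59). The strand setting of the counting is not given in the sources used here, so that reads over these shared bases cannot be assigned to either gene.

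Runs of GGAA repeats near these genes were looked up after their values were seen, since the fusion binds such repeats. A run of at least 4 GGAA units in tandem within 100 kb of the start was found for 8707 of 16008 tested genes (54.4%), for 27 of the 42 members (64.3%) and for 21 of the 27 tested members (77.8%). It was found for 5 of the 6 members called lower and for 3 of the 7 called higher. The nearest runs of SYT1 and SNAP25, both lower in siEF, and of DCX, called higher, and NLGN2, higher by adjusted P, are printed here because they are long and stand near members of either direction. They read 5′ to 3′ on the plus strand of hg38, all in capitals as repeat units. The SYT1 run (chr12:78931242-78931305, 16 units) lies 66.5 kb downstream of the start, the SNAP25 run (chr20:10282163-10282226, 16 units) 63.3 kb downstream, the DCX run (chrX:111385784-111385843, 15 units) 26.3 kb downstream and the NLGN2 run (chr17:7424548-7424611, 16 units) 16.7 kb downstream.
SYT1: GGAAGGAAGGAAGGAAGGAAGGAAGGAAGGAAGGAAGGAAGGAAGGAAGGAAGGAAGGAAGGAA
SNAP25: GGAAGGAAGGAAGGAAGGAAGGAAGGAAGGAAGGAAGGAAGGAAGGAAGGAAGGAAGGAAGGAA
DCX: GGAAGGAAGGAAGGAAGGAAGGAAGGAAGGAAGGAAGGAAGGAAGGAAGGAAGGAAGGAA
NLGN2: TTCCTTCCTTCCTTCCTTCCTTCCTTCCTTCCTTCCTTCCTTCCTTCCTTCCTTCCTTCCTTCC
Among the other members called lower, the nearest run had 11 units 58.7 kb upstream of PCSK2, 6 units 9.79 kb upstream of NCAM2, 5 units 66.0 kb downstream of SYP and 4 units 47.0 kb downstream of MAPT, whose longest run within 100 kb had 12 units, and GAP43 had its nearest at 182 kb. Among the other members called higher, L1CAM had 5 runs within 100 kb, the nearest 26.6 kb downstream with 4 units and the longest with 9, and CADM1 had its nearest 18.7 kb upstream with 4 units. The nearest run of PCSK1, SYT11, INA and NRXN2 lay between 101 and 279 kb away. Lengths are those of the reference genome and were not measured in TC32.

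Of the neurofilament genes, which build the intermediate filaments of axons, 2 of 4 were tested, and INA was called higher while NEFL was lower by adjusted P alone. INA, alpha-internexin, had 43.9, 42.2 and 44.5 CPM in siEF, 15.4, 16.1 and 17.1 CPM in siNEG and 17.6, 17.2 and 17 CPM in Media. All siEF libraries were far above both controls, a 2.69-fold difference from siNEG (Log2FC 1.43, SE 0.063, edgeR adjusted P = 3.55e-12). INA shares 452 exonic bases (13.9% of its exons) with NT5C2 on the opposite strand, whose Log2FC was 0.22. NEFL, the light chain, had 5.56, 5.09 and 6.0 CPM in siEF against 8.44, 10.5 and 10.2 CPM in siNEG, with no overlap (Log2FC -0.80, SE 0.12, edgeR adjusted P = 1.14e-05) and short of the fold cut-off. Both proteins are 49.5% identical over 485 aligned residues. NEFM had between 1 and 7 counts in every library, and NEFH at most 3.

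Of the 9 microtubule and growth cone genes, 7 were tested, DCX was called higher and MAPT and GAP43 lower, and MAP1B passed the adjusted P alone. MAPT, tau, which binds axonal microtubules, had 44.2, 48.4 and 46.5 CPM in siEF, 142, 144 and 154 CPM in siNEG and 188, 172 and 172 CPM in Media. The 3 groups were apart from each other, and siEF was 3.16-fold below siNEG (Log2FC -1.66, SE 0.055, edgeR adjusted P = 9.18e-14). MAP1B, a microtubule protein of growing axons, had 705, 691 and 735 CPM in siEF, 332, 379 and 378 CPM in siNEG and 342, 434 and 388 CPM in Media. Its Log2FC of 0.97 (SE 0.072, edgeR adjusted P = 2.74e-09) was just short of the cut-off, and upper quartile scaling put it at 1.06.

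DCX, doublecortin, a microtubule protein of migrating young neurons, had 9.43, 9.01 and 8.91 CPM in siEF, 1.61, 1.80 and 1.38 CPM in siNEG and 1.76, 1.36 and 2.03 CPM in Media. The control libraries overlapped each other and siEF was 5.71-fold above siNEG (Log2FC 2.51, SE 0.17, edgeR adjusted P = 7.60e-10). MAP2, the dendritic relative of tau with 36.0% identity over 744 aligned residues, had 15, 13 and 17 counts in siEF against 9, 9 and 12 counts in siNEG. Its libraries did not overlap in CPM, but the difference did not pass the test (Log2FC 0.90, SE 0.42, edgeR adjusted P = 0.0623).

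GAP43, a protein of the growth cone membrane that nerve regeneration brings up, had 2.64, 2.40 and 1.95 CPM in siEF, 4.96, 4.92 and 4.71 CPM in siNEG and 5.55, 5.58 and 5.55 CPM in Media. Its Log2FC was -1.06 (SE 0.15, edgeR adjusted P = 7.22e-06), and it fell short of the cut-off at -0.94 without siEF replicate 3 and at -0.98 with upper quartile scaling. TUBB3, the neuronal beta-tubulin, had 56.0, 63.1 and 56.0 CPM in siEF and 51.8, 54.5 and 52.5 CPM in siNEG (Log2FC 0.14, SE 0.068, edgeR adjusted P = 0.0784) and did not pass the test. It shares 21.3% of its exonic bases with an unnamed protein-coding gene on the same strand. The counts are expected counts from RSEM, fractional for TUBB3 (1551.49, 1287.71 and 1632.51 in siEF). The part of the shared bases in the TUBB3 values was not tested. STMN3, a stathmin that loosens microtubules, had 64.6 ± 6.18 CPM in siEF and 61.4 ± 2.14 CPM in siNEG (SD, n = 3) and overlapping libraries. STMN2 had 0 counts in all 9 libraries and STMN4 a single count in Media replicate 3, although STMN2 and STMN3 proteins are 73.2% identical over 179 aligned residues.

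The GAP43 window holds the GGACAGC part of the RE1 site 97 bases before the start and is printed as the other called member with this string (chr3:115623260-115623559, plus strand, capitals mark the match).
GAP43: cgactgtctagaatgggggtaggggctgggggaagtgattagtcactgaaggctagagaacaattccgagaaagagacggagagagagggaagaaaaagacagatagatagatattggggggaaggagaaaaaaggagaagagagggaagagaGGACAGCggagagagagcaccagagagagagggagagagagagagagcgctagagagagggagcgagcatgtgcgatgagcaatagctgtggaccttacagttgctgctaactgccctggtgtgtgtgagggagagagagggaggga

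UCHL1, a ubiquitin hydrolase that is abundant in neurons, was the only tested gene of its role. It had 229, 246 and 221 CPM in siEF, 308, 304 and 305 CPM in siNEG and 345, 338 and 317 CPM in Media. The siEF libraries were below all others, by a Log2FC of -0.40 against siNEG (SE 0.048, edgeR adjusted P = 1.13e-06). Per kb of its short canonical transcript, UCHL1 stood first of the 42 members in every group, at 277 ± 1.86 CPM per kb in siNEG (SD, n = 3), ahead of TUBB3 at 31.0 ± 0.798 and MAP1B at 30.8 ± 2.28 CPM per kb, which did not differ beyond their spread. STMN3 (27.3 ± 0.952), MAPT (21.5 ± 0.915) and CPE (20.6 ± 0.160 CPM per kb) followed, and in siEF MAPT went from rank 5 to rank 13 while MAP1B went from rank 3 to rank 2 at 60.2 ± 1.89 CPM per kb.

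The neuronal ELAV genes, whose proteins steady and splice neuronal messages, were almost silent. ELAVL2 had 0 to 11 counts, ELAVL3 0 to 12 and ELAVL4 0 counts in all 9 libraries. None of the 3 passed the filter on low counts, and the relation between ELAVL2 and ELAVL4 (90.5% identity over 358 aligned residues) is the closest among the pairs compared.

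Of the 9 adhesion genes and synaptic organisers, 6 were tested, 3 were called higher (L1CAM, NRXN2 and CADM1) and 1 lower (NCAM2). L1CAM, an adhesion molecule that guides axons, had 27.5, 26.1 and 28.5 CPM in siEF, 0.221, 0.413 and 0.0962 CPM in siNEG and 0.490, 0.254 and 0.664 CPM in Media. In reads this was 762, 533 and 831 counts in siEF against 7, 14 and 3 counts in siNEG. Per kb of transcript L1CAM went from rank 26 of the 42 members in siNEG to rank 15 in siEF, at 5.33 ± 0.233 CPM per kb (SD, n = 3). The difference was 113-fold (Log2FC 6.76, SE 0.22, edgeR adjusted P = 8.81e-14). The Log2FC was 7.38 without siNEG replicate 2, which held 14 of the siNEG counts, and 5.87 (58.4-fold) against Media. An unnamed protein-coding gene on the same strand shares 6.04% of the L1CAM exonic bases.

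NRXN2, a presynaptic neurexin, had 2.02, 2.55 and 2.54 CPM in siEF, 0.663, 0.177 and 0.128 CPM in siNEG and 0.522, 0.286 and 0.175 CPM in Media. Although siNEG replicate 1 was well above the other 2, the groups did not overlap (Log2FC 2.86, SE 0.47, edgeR adjusted P = 3.99e-05). Without that library the Log2FC was 3.88. NRXN2 needed its siEF libraries to pass the filter on low counts, since only 1 siNEG and 1 Media library were over 0.33 CPM. Its call is therefore no independent evidence of a rise. NLGN2, a neuroligin of inhibitory synapses and a partner of neurexins, had 113, 111 and 118 CPM in siEF, 72.5, 63.9 and 62.6 CPM in siNEG and 80.7, 72.3 and 76.0 CPM in Media (Log2FC against siNEG 0.78, SE 0.061, edgeR adjusted P = 5.03e-09). The other genes of these families were scarcely read, with NRXN3 at 0 counts in all 9 libraries and NLGN1 at 0 to 6.

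CADM1, a synaptic adhesion molecule of the immunoglobulin family, had 1.3, 1.57 and 1.3 CPM in siEF, 0.474, 0.796 and 0.705 CPM in siNEG and 0.620, 0.444 and 0.664 CPM in Media. Its call (Log2FC 1.06, SE 0.32, edgeR adjusted P = 0.00697) was the least firm of the 13. The adjusted P was 0.0162, 0.0263 and 0.0160 without siEF replicates 1, 2 and 3, 0.0361 without siNEG replicate 1 and 0.0155 without siNEG replicate 3, all above the 0.01 limit. It was also above it with DESeq2 (adjusted P = 0.0190) and without the filter on low counts (edgeR adjusted P = 0.0159). The direction was the same in these fits.

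Of the NCAM pair, NCAM2 was called lower and NCAM1 was higher by adjusted P alone. NCAM1, which encodes CD56, had 155, 160 and 160 CPM in siEF against 115, 118 and 113 CPM in siNEG and 108, 116 and 108 CPM in Media (Log2FC against siNEG 0.46, SE 0.045, edgeR adjusted P = 8.93e-08). NCAM2, best known from olfactory axons, had 0.434, 0.686 and 0.514 CPM in siEF, 2.24, 2.03 and 1.70 CPM in siNEG and 2.32, 2.47 and 2.06 CPM in Media. It was 3.66-fold lower in siEF (Log2FC -1.89, SE 0.27, edgeR adjusted P = 9.25e-06), with no overlap. The 2 proteins are 46.4% identical over 826 aligned residues. CNTN1, a contactin of axons, had 0 counts in all 9 libraries. Together the 9 genes of this role held 304 ± 6.31 CPM in siEF and 185 ± 6.38 CPM in siNEG (SD, n = 3).

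**Figure D3:**
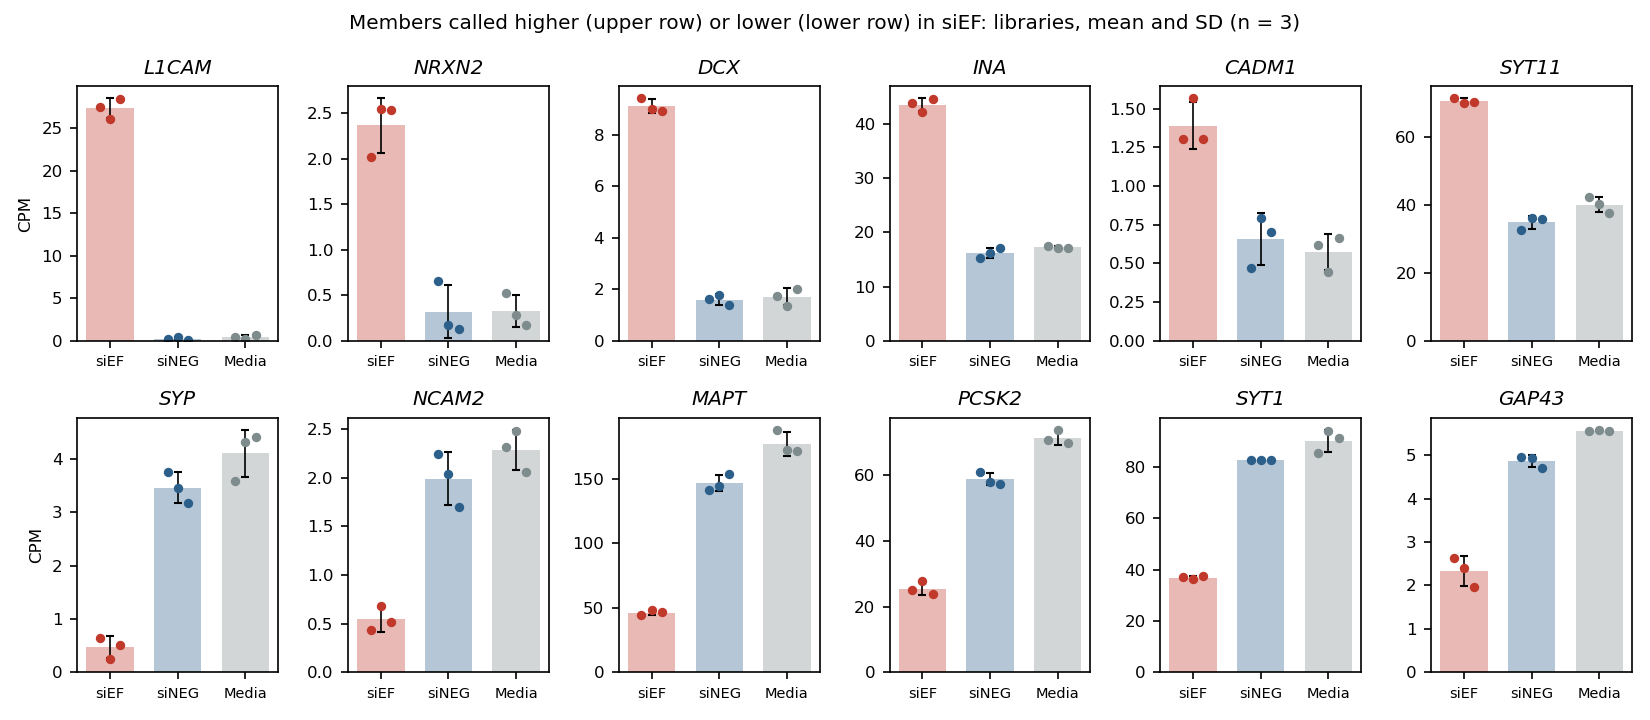
CPM (vertical axes, each from 0) of the 12 called members that reached 1 CPM in a group, in siEF, siNEG and Media. Bars are means, error bars SD (n = 3) and points the libraries, with members called higher in the upper row and lower in the lower row. L1CAM went from 0.243 CPM in siNEG to 27.4 CPM in siEF and MAPT from 147 to 46.4 CPM, and in each panel the siEF points lie outside both controls.

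The 15 members below the filter were CHGA, CHGB, SCG3, SCG5, SYT4, NEFM, NEFH, STMN2, STMN4, ELAVL2, ELAVL3, ELAVL4, CNTN1, NRXN3 and NLGN1. The filter asked for 0.33 CPM, or 10 counts at the median depth, in at least 3 libraries. Of these genes, 4 had 0 counts in every library (STMN2, ELAVL4, CNTN1 and NRXN3), 5 had at most 3 counts in any, 5 had 4 to 12 counts in their fullest library, and CHGB reached 19. Without the filter on low counts the fit over all 9 libraries tested 38 of the 42 members, that is every member but the 4 at 0 counts, and none of those below the filter was called.

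Fewer members differed between the 2 control groups. Between siNEG and Media, where 0.162% of all tested genes were called higher and 0.267% lower, 0 of the 27 members were called by edgeR, 9 had an unadjusted P below 0.05, and DESeq2 called 0. By adjusted P alone 3 members passed, all lower in siNEG, where 9.79% of all tested genes passed. These were MAPT (Log2FC -0.28, SE 0.051, edgeR adjusted P = 0.00119), PCSK2 (-0.28, SE 0.059, edgeR adjusted P = 0.00322) and RAB3A (-0.66, SE 0.16, edgeR adjusted P = 0.00963). Each was also lower in siEF than in siNEG, so that both siRNA groups stood below Media in the order siEF, siNEG, Media.

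All 3 passes by adjusted P alone were sensitive to single libraries. That of RAB3A was also lost with RLE scaling (edgeR adjusted P = 0.01004) and with upper quartile scaling (edgeR adjusted P = 0.01157). The adjusted P of MAPT (edgeR) was 0.0117 without siNEG replicate 1 and 0.0108 without siNEG replicate 2. For PCSK2 it was 0.0207 without siNEG replicate 2, 0.0195 without siNEG replicate 3 and 0.0197 without Media replicate 2. For RAB3A it rose past 0.01 without siEF replicate 1 (0.0110), siNEG replicates 1, 2 and 3 (0.0318, 0.0270 and 0.0344) and Media replicates 1, 2 and 3 (0.0584, 0.0173 and 0.0118).

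Against Media, whose comparison shares the siEF libraries, 14 members were called. The 6 higher in siEF (17.4% of all tested genes) were CADM1, DCX, INA, L1CAM, NRXN2 and PCSK1. The 8 lower (12.5% of all tested genes) were GAP43, MAPT, NCAM2, PCSK2, RAB3A, SNAP25, SYP and SYT1. SYT11 was not among them, and RAB3A at -1.64 and SNAP25 at -1.02 were.

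Genes related to the members by function were counted from 6 further lists, against the same 17.1% called higher and 11.7% called lower among all tested genes. Of 28 other genes of synaptic vesicles and the active zone, 21 were tested, 7 were called higher and 2 lower, with a median Log2FC of 0.60. SYN3, 1 of the 7, passed the filter on low counts only through siEF and had to be higher there to be tested. SYNGR3, a synaptic vesicle protein of the synaptogyrin family, had 24.9, 26.7 and 24.4 CPM in siEF against 1.39, 0.973 and 0.673 CPM in siNEG (Log2FC 4.64, SE 0.18), and the Log2FC was 3.52 against Media. SYT2, another fast calcium sensor, had 6.03, 6.12 and 6.20 CPM in siEF against 0.411, 0.737 and 0.321 CPM in siNEG (Log2FC 3.62, SE 0.28), opposite to SYT1. SV2B, a vesicle glycoprotein, had 0.397, 0.343 and 0.411 CPM in siEF against 3.32, 3.77 and 4.65 CPM in siNEG (Log2FC -3.32, SE 0.23), and the Log2FC was -3.95 against Media.

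Of 18 neuropeptide precursors, the substrates of the convertases, 7 were tested and 4 were called lower, with a median Log2FC of -1.51. CCK, cholecystokinin, had 7.05, 6.66 and 7.37 CPM in siEF, 64.6, 53.7 and 57.5 CPM in siNEG and 111, 109 and 108 CPM in Media (Log2FC against siNEG -3.05, SE 0.080). NTS, neurotensin, had 0.145, 0.441 and 0.137 CPM in siEF against 1.71, 1.68 and 1.80 CPM in siNEG (Log2FC -2.92, SE 0.37), and the Log2FC was -3.58 without siEF replicate 2. PNOC, prepronociceptin, had 0.434, 0.784 and 0.480 CPM in siEF against 1.45, 1.80 and 1.47 CPM in siNEG (Log2FC -1.51, SE 0.33). GAL, galanin, with a Log2FC of 0.93, did not pass the test (edgeR adjusted P = 0.0639). Of 15 other dense core vesicle genes, 5 were tested, 1 was called higher and 1 lower. The gene called higher was BAIAP3, with 12, 5 and 12 counts in siEF against 1, 2 and 0 counts in siNEG. It needed its siEF libraries to pass the filter on low counts, since 0 siNEG libraries and 1 Media library were over 0.33 CPM. Its call is therefore no independent evidence of a rise. The gene called lower was CADPS2, a priming factor, with 43.8, 43.0 and 38.6 CPM in siEF against 79.7, 83.9 and 90.8 CPM in siNEG (Log2FC -1.02, SE 0.066). CADPS2 missed the cut-off at -0.97 without siEF replicate 3, -0.98 without siNEG replicate 3, -0.94 with upper quartile scaling and -0.999 with at least 10 counts in every library.

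**Figure D4:**
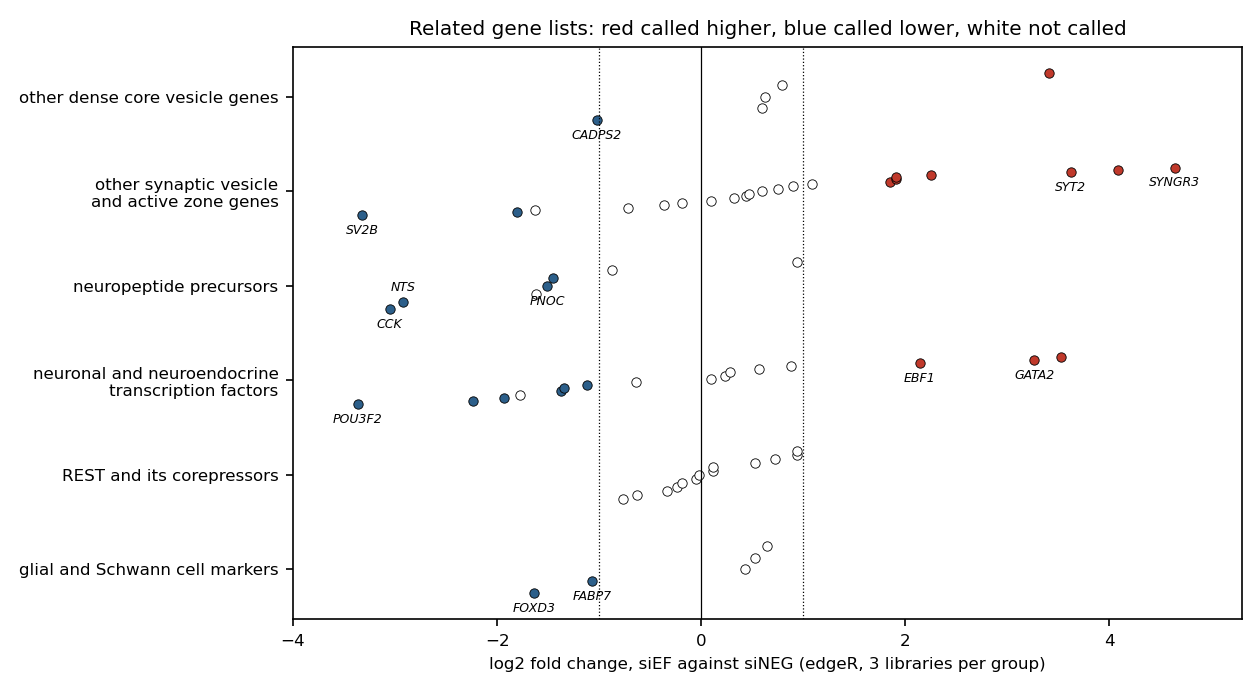
Log2FC of siEF against siNEG (horizontal axis) for the tested genes of 6 related lists (rows), with genes called higher in red, called lower in blue and not called in white. Points are spread vertically in the order of their values, and dotted lines mark -1 and 1. The called genes of the neuropeptide list lie at -1.46 and below, whereas the synaptic vesicle list reaches from -3.32 to 4.64.

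Transcription factors of neuronal and neuroendocrine lineages also split. Of 31 listed, 16 were tested, 3 were called higher and 6 lower. HAND1, 1 of the 3, passed the filter only through siEF and had to be higher there to be tested. POU3F2 (BRN2), a factor of neural progenitors, had 20.4, 20.3 and 20.6 CPM in siEF against 206, 216 and 210 CPM in siNEG (Log2FC -3.36, SE 0.049). GATA2, which acts in sympathetic and blood lineages, had 162, 161 and 164 CPM in siEF against 17.3, 17.3 and 16.0 CPM in siNEG (Log2FC 3.27, SE 0.057). EBF1 had 15.9, 15.8 and 17.5 CPM in siEF against 3.70, 3.12 and 4.36 CPM in siNEG (Log2FC 2.14, SE 0.14).

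REST and its corepressors were all tested (13 of 13), and 4 passed the adjusted P higher and 4 lower, each inside the fold cut-off, where 65.4% of all tested genes passed the adjusted P. REST itself had 97.9, 93.7 and 96.2 CPM in siEF against 44.9, 52.4 and 52.7 CPM in siNEG (Log2FC 0.94, SE 0.065, edgeR adjusted P = 1.18e-09). RCOR1, its CoREST partner, had 126, 125 and 129 CPM against 210, 221 and 218 CPM (Log2FC -0.77, SE 0.045, edgeR adjusted P = 1.26e-10). Against Media, REST (Log2FC 1.03) and CTDSP2 (1.14) were called higher and RCOR1 (-1.10) lower. In that comparison 17.4% of all tested genes were called higher and 12.5% lower. Of 12 glial and Schwann cell markers, 5 were tested and 2 were called lower. FOXD3, a neural crest factor, had 1.63, 2.15 and 1.68 CPM in siEF against 6.13, 5.60 and 5.10 CPM in siNEG (Log2FC -1.64, SE 0.18). FABP7, a fatty acid binding protein of glial cells, had 9.68, 7.05 and 10.1 CPM in siEF against 22.3, 18.8 and 15.9 CPM in siNEG (Log2FC -1.07, SE 0.13). Its Log2FC was -0.94 without siEF replicate 2, -0.97 without siNEG replicate 1 and -0.98 with upper quartile scaling. Summed over this list, siEF libraries had 14.5 to 17 CPM and siNEG libraries 23.9 to 31.6 CPM, while the median Log2FC of its tested genes was 0.43. All libraries came from the single line TC32, and a link of these transcripts to the members' changes was not tested.

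Gene length differed among the members. The median length of the gene body was 43.8 kb for the tested members and for the 7 called higher, 196 kb for the 6 called lower, and 28.3 kb for all tested genes with an annotated length. The members lie on 21 chromosomes, with the largest numbers, 4 each, on chromosomes 8 and 20. The longest gene called lower, SYT1, spans 588 kb, and the shortest, SYP, 12.4 kb, and both were reduced.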

How the data were processed

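Poly(A) RNA of 9 TC32 cultures was measured in 1 table. Per the paper's methods, the authors mapped reads to hg38 with STAR 2.7.1a and quantified them with RSEM 1.3.1, and they deposited the expected counts per gene, neither scaled for depth nor pooled. The submitters' processing notes also list cutadapt 2.10 and DESeq2 1.32.0. The annotation release and strand setting are not given in the sources used here. For this work the counts were rounded and passed through filterByExpr and TMM scaling. A single edgeR 4.0.16 model (R 4.3.3) of the 9 libraries gave quasi-likelihood P values, adjusted by Benjamini-Hochberg. A call needed an adjusted P below 0.01 and a Log2FC beyond 1. SE is the Log2FC divided by the root of the F statistic. The procedure was tested on simulated data. Positions, transcript lengths and protein alignments (Biopython 1.88) came from GENCODE 44 on GRCh38, whose build matches hg38, and promoter windows from RefSeq. CPM per kb divides by the canonical transcript. Groups came from the labels. Replicate pairs differed by more than sampling noise.

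Members and lists were chosen with earlier results of these data known. Per-library values are given for called members without overlap and with a mean of at least 1 CPM in the higher group, and for the 3 such genes with the largest change in each related list. PCSK1, uncalled members and genes that overlap members were described besides that rule. The GGAA search was added after the values were seen. The alternatives were upper quartile or RLE scaling, DESeq2 1.42.0, 2 other filters, 6 libraries only, the replicate block, glmTreat, no fold cut-off, Media or pooled controls, and each library left out.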

Additional observations from a re-analysis of the deposited data

How the results depend on the processing

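The count of members called higher (7 with all libraries) was 4 with at least 10 counts in every library, which tests 22 members and drops L1CAM, NRXN2 and PCSK1, 4 when tested against the fold cut-off itself, and 12 without a fold cut-off. Members called lower (6) became 10, and siNEG against Media (0) became 3, without that cut-off. The counts were otherwise within 1.5 times. Leaving out each library gave 6 to 7 higher, 6 to 7 lower, and 0 between siNEG and Media. The median Log2FC (0.14) ranged from 0.12 to 0.17 with a library left out. It was 0.22 with upper quartile scaling, 0.25 without the filter, 0.0332 with 10 counts in every library, 0.0395 against Media, 0.0195 against pooled controls and 0.30 with DESeq2. It stayed positive, and the cause of these shifts was not tested. Upper quartile scaling put the median of all genes at 0.13 (0.05 with TMM). The 13 called members kept their direction in every alternative that tested them.

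Signs turned for uncalled members. SCG2 (-0.06) was at 0.0302 after upper quartile scaling and ranged from -0.102 to 0.000111 with a library left out, the latter without siEF replicate 2. VAMP2 (-0.05) was at 0.0354 after that scaling and 0.0395 against Media, and ranged from -0.106 to 0.00656 with a library left out, the latter without siNEG replicate 1. STMN3 (0.07) was at -0.0457 against Media and between -0.0115 (without siEF replicate 2) and 0.113 with a library left out, and TUBB3 (0.14) was at -0.0934 against Media. The cause was not tested.

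Equal replicate numbers did not pair the libraries (correlations of deviations -0.0875 to 0.0482, and not every library correlated best with its own number). With the replicate block 6 members were called higher and 6 lower, the median Log2FC was 0.14, and CADM1 was no longer called (1.08, edgeR adjusted P = 0.0134). By adjusted P alone, RAB3A was also lost between siNEG and Media (-0.65, edgeR adjusted P = 0.0128).

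Depth limits the 15 members below the filter and PCSK1. The share of counts in the top 10 genes differed between siEF and the controls, and its part in small changes was not tested.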
